A study of Mus musculus with 6 samples.

Results

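The genes described here are 10 members of the ETS transcription factor family, taken by symbol from a table of 55573 mouse genes: Fli1, Erg, Ets1, Ets2, Elf1, Elf4, Gabpa, Spi1, Elk3 and Elk4. Each of the 10 had 1 row in the table, and all 10 passed the filter on low counts. They were measured by bulk RNA sequencing in LSK cells, the bone marrow fraction sorted as lacking lineage markers and carrying Sca-1 and c-Kit, which holds hematopoietic stem cells and multipotent progenitors. The mice were of strain C57BL/6J and aged 3 months. The wild-type group (Etv6+/+) has 3 libraries, and the group heterozygous for the R355X allele of Etv6 has 3. The genotype label writes the second group as Etv6+/-, whereas the series text names it Etv6 R355X/+. No label says whether a library is 1 animal or a pool.

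ETS factors share a DNA-binding domain that reads a GGAA core, and the bases around that core tune which members bind best. Etv6 is a repressor of the family: it binds such sites and recruits corepressors, so activators that read the same sites can compete with it. In blood stem and progenitor cells, Erg and Fli1 maintain stem cell programs together with Runx1, Gata2 and Tal1, and Spi1, which encodes PU.1, drives myeloid and early lymphoid fates. Elk3 and Elk4 bind with serum response factor and respond to ERK signalling, and Elk3 is also known as a repressor when ERK signalling is low.

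The stretches upstream of the starts of Etv6, Erg and Elk4 are shown with their matches to the site that ETS factors read. RefSeq sequences (GRCm38.p6) were found for 8 of the 11 genes (the 10 and Etv6), in 14 windows of 250 bases. The core GGAA, searched on both strands, was present in 93.4% of 32851 such windows over all genes, with a median of 3 matches. The longer form CCGGAAGT, which contains the core, was present in 2.88%, also on both strands. Among the 14 windows it occurred in 1, that of Elk4, where the match begins 68 bases before the RefSeq start, which lies 13 bases inside the first GENCODE exon. The shorter CCGGAA, present in 12% of all windows, was found for Elk4 and Gabpa. Printed 5′ to 3′ on the strand of the gene, with GGAA or its complement TTCC in capitals, the Etv6 stretch (chr6:134035450-134035699, plus strand) has 3 matches. The Erg stretch (chr16:95586594-95586843, minus strand) has 0, while the other two Erg windows, not printed, have 4 and 2. The Elk4 stretch (chr1:132007370-132007606, plus strand, ending before the first annotated exon) has 3.
Etv6: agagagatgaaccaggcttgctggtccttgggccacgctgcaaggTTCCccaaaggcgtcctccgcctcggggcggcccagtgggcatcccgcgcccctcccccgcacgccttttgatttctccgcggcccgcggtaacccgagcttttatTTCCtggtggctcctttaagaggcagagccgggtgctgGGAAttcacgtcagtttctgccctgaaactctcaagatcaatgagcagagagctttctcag
Erg: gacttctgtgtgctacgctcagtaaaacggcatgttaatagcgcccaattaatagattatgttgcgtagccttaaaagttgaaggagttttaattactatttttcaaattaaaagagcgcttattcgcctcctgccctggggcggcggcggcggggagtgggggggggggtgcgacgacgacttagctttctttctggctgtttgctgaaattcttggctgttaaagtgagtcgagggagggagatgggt
Elk4: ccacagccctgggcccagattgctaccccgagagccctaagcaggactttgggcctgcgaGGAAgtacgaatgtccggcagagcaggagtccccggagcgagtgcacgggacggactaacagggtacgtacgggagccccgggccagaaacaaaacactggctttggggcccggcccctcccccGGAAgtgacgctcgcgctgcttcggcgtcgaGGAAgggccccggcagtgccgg
The matches describe the letters only. No binding was measured in these samples.

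Library totals, in units of 1000000 expected counts, ran from 45.2 to 92.2, the last being mutant replicate 1. This same library held the largest share of nuclear ribosomal RNA, 8.61% against 6.30% to 7.19% in the others. The sorting markers were present: Kit, the receptor behind c-Kit, lay between 351 and 452 CPM (counts per 1000000 counts of the library, scaled by the TMM method), and Ly6a, which encodes Sca-1, between 71.7 and 93.5 CPM. Of 10 LSK and stem cell genes with these 2, 1 had a log2 fold change above 0 and 9 below, at a median of -0.122. None passed in edgeR, and 2 were lower at an unadjusted p under 0.05, against 4.8% of all tested genes. Transcripts of genes taken as markers of other cells were present as well. Summed over 10 neutrophil genes, of which 4 had a log2 fold change above 0, the level was 5470 to 8140 CPM in wild type and 4240 to 5950 CPM in the mutant. Summed over 9 B cell genes, mostly Igkc, the level was 1330 to 2120 CPM in wild type and 1930 to 2290 CPM in the mutant. All 9 of the 9 had a log2 fold change above 0, at a median of 0.895. Of these, 7 were higher at an unadjusted p under 0.05 in edgeR, against 5.83% of all tested genes, and none passed. The sum over 10 macrophage and dendritic cell genes was 92.9 to 113 and 102 to 143 CPM, with 7 of 10 above 0 and a median of 0.506. At an unadjusted p under 0.05 in edgeR, 6 were higher in the mutant and 1 lower, and none passed. Over all tested genes these shares were 5.83% higher and 4.8% lower. For 8 endothelial genes the sum was 40.6 to 49.9 and 34.3 to 38.5 CPM, with the endothelial cadherin gene Cdh5 at 0.0819 to 0.489 CPM over all 6 libraries. None of these markers was at 0 in all 6. Over all tested genes 0.266% passed the adjusted test in edgeR. Of the markers of other cells, 4 passed this test, with higher mutant levels. They were the globin genes Hbb-bt (log2 fold change 2.12, adjusted p = 0.00213) and Hbb-bs (1.25, 0.0312), the NK cell gene Klrb1c (1.82, 0.0177) and Fcer1a (2.31, 0.00522), a mast cell and basophil gene. The calls were 2 of 10 tested erythroid genes, 1 of 9 T and NK cell genes, and 1 of 9 mast cell, basophil and eosinophil genes. Fli1, Erg, Ets1 and Spi1 are also expressed in such cells, and the part of these cells in the levels below was not tested. In bulk samples, fewer cells of a type and less RNA per cell cannot be told apart.

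Etv6, the mutated gene, measured 454, 419 and 400 CPM in wild-type replicates 1, 2 and 3, and 305, 341 and 386 CPM in mutant replicates 1, 2 and 3. Every mutant value lay below every wild-type value, with mutant replicate 1 the lowest. The mutant level was 81.0% of wild type (95% interval 72.1% to 91.1%, normal approximation to the fit), and its adjusted p was 0.245 (unadjusted p = 0.00506) in the quasi-likelihood test of edgeR, with Benjamini-Hochberg adjustment over 20646 genes. An exact two-sided permutation test of its log2 CPM gave 0.1, the smallest p that 3 against 3 allows. The counts do not separate the alleles. Being unstranded, they also do not separate Etv6 from a gene on the other strand that shares exon bases with it.

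None of the 10 activator genes passed the same test between genotypes. Over all genes 0.266% passed, and the smallest adjusted p among the 10, in edgeR, was 0.346. Both DESeq2 and limma-voom also called 0 of the 10. An unadjusted p under 0.05 was found for 1 of the 10, Spi1, where the mutant was lower. Over all tested genes that share was 10.6%, of which 5.83% were higher in the mutant and 4.8% lower, so the count among the 10 is near the background. Of the 10 log2 fold changes, 4 were above 0 and 6 below, where 50.6% of all tested genes were above 0. The 10 had a median of -0.029 against 0.0019 over all tested genes. The 95% intervals of all 10 lay between -0.37 and 0.28, which is between 77.2% and 121% of wild type. Smaller differences were not resolved with 3 libraries per genotype.

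**Figure D1:**
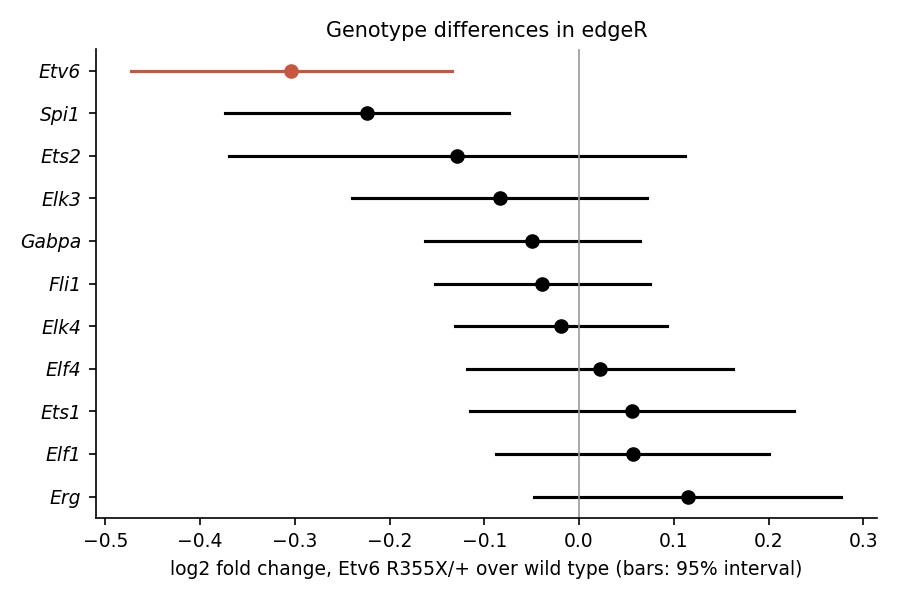
Log2 fold change of each gene in Etv6 R355X/+ over wild type (dots) with its 95% interval (bars), from edgeR on 3 libraries per genotype, Etv6 in red. The intervals of Etv6 and Spi1 lie below 0, and those of the other 9 genes cross 0.

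The 10 genes differed from each other far more than between genotypes. On the scale of CPM per kb of annotated exon, Elf1 was the highest at 40.5 ± 3.17 CPM per kb in wild type and 42.2 ± 2.69 in the mutant (SD, n = 3), followed by Erg (36.6 ± 3.43 and 39.6 ± 3.20), Elk4 (35.0 ± 1.51 and 34.5 ± 0.490) and Fli1 (31.1 ± 1.30 and 30.2 ± 0.533). Below these came Elf4 (24.5 ± 2.03 and 24.9 ± 1.22 CPM per kb), Elk3 (23.1 ± 2.35 and 21.8 ± 1.06) and Gabpa (22.3 ± 0.712 and 21.6 ± 0.744). Spi1 followed at 16.4 ± 0.952 and 14.1 ± 0.893 CPM per kb. Ets1 (4.71 ± 0.241 and 4.89 ± 0.527 CPM per kb) and Ets2 (3.46 ± 0.378 and 3.17 ± 0.397) were the lowest.

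Several neighbours in this order were not separated by their spread. The ranges over 6 libraries overlapped between Elf1 and Erg, between Erg and Elk4, between Elf4 and Elk3, and between Elk3 and Gabpa. They did not overlap between Elk4 and Fli1, Fli1 and Elf4, Gabpa and Spi1, Spi1 and Ets1, or Ets1 and Ets2. Elf1, Fli1, Spi1, Ets1 and Ets2 held the same rank among the 10 in all 6 libraries. With the longest transcript as the length, Elf1 stayed first (65.8 CPM per kb over 6 libraries) and Elk4 (50.2) stood above Erg (40.7), while Gabpa (25.0) stood above Elf4 and Elk3. Etv6 itself, at 70.9 ± 4.55 CPM per kb in wild type and 57.5 ± 6.77 in the mutant, was above all 10 in every library on the exon scale. With the longest transcript as the length (5707 bases for Etv6 and 4235 for Elf1), Etv6 was below Elf1 in mutant replicates 1 and 2.

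**Figure D2:**
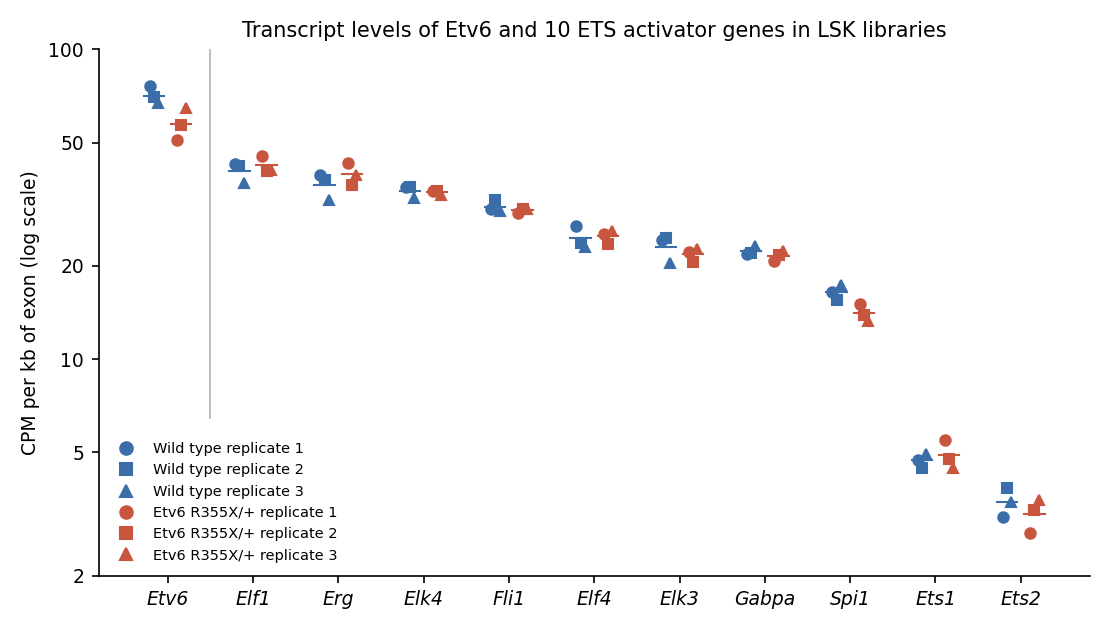
CPM per kb of exon (log axis) of Etv6 and the 10 activator genes in each library, with symbols for replicates, colours for genotypes and short lines for group means. Etv6 lies highest, and Ets1 and Ets2 lie lowest, below 6 CPM per kb.

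Fli1 and Erg, the close relatives that maintain stem cell and megakaryocyte programs, were both well expressed and showed no resolved genotype difference. Fli1 (ENSMUSG00000016087.13, mm10 chromosome 9 from 32422204 to 32542861, minus strand) stood at 107, 113 and 105 CPM in the wild-type libraries against 103, 106 and 106 CPM in the mutant ones. The genotypes overlapped, and the mutant libraries lay closer together than the wild-type ones. Its log2 fold change was -0.039 (SE 0.058, adjusted p = 0.863 in edgeR's quasi-likelihood test). Erg (ENSMUSG00000040732.20, chromosome 16 from 95359169 to 95586593, minus strand) stood at 136, 131 and 113 CPM in the wild-type libraries against 149, 127 and 137 CPM in the mutant ones. Mutant replicate 1 was the highest and wild-type replicate 3 the lowest, and the other 4 libraries overlapped. The log2 fold change of Erg was 0.11 (SE 0.083, adjusted p = 0.670 in edgeR), the highest of the 10, and it was 0.040 without wild-type replicate 3.

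Ets1 and Ets2, founding members of the family, were the weakest of the set. Each lies beside one of the previous genes: Ets1 starts 93.4 kb from Fli1 and Ets2 starts 115 kb from Erg, each transcribed away from that neighbour. Ets1 (ENSMUSG00000032035.15, chromosome 9 from 32636221 to 32757820, plus strand), best known from lymphocytes, stood at 40.0, 37.8 and 41.9 CPM in the wild-type libraries against 46.4, 40.2 and 37.7 CPM in the mutant ones. Mutant replicate 1 was the highest library and mutant replicate 3 the lowest, so the mutant spanned the wild-type range. Ets1 had a log2 fold change of 0.056 (SE 0.087), which was -0.033 without mutant replicate 1. Ets2 (ENSMUSG00000022895.16, chromosome 16 from 95702075 to 95721051, plus strand) stood at 17.8, 22.2 and 20.01 CPM in the wild-type libraries against 15.8, 18.8 and 20.3 CPM in the mutant ones. The genotypes overlapped, with mutant replicate 1 lowest and wild-type replicate 2 highest. Its log2 fold change of -0.13 carried the largest standard error of the 10 (0.12), and it was -0.031 without mutant replicate 1 and -0.21 without mutant replicate 3.

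Per kb, the neighbours in each pair stood far apart. Fli1 at 29.6 to 32.5 CPM per kb was above Ets1 at 4.45 to 5.47, and Erg at 32.7 to 42.9 was above Ets2 at 2.74 to 3.84. Neither pair came near overlap in any library.

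The ELF genes and Gabpa, which read similar extended sites and are broadly expressed, were close to their wild-type levels. Elf1 (ENSMUSG00000036461.16, chromosome 14 from 79481194 to 79582494, plus strand), a regulator of blood and endothelial genes, stood at 288, 283 and 249 CPM in the wild-type libraries against 305, 273 and 274 CPM in the mutant ones. Wild-type replicate 3 was the lowest and mutant replicate 1 the highest, and the genotypes overlapped (log2 fold change 0.057, SE 0.073). The Elf1 value was -0.0068 without wild-type replicate 3 and 0.0026 without mutant replicate 1. Elf4 (ENSMUSG00000031103.12, chromosome X from 48411046 to 48463132, minus strand), known for its part in stem cell cycling and in innate immunity, stood at 165, 146 and 142 CPM in the wild-type libraries against 156, 145 and 159 CPM in the mutant ones. The wild-type libraries held both the highest and the lowest value, and the log2 fold change was 0.022 (SE 0.072). With 1 library left out the Elf4 value ran from -0.021 to 0.092, below 0 in 3 of 6 fits, and it was -0.014 with scaling by library size alone. Gabpa (ENSMUSG00000008976.16, chromosome 16 from 84834925 to 84863779, plus strand), the DNA-binding subunit of GABP, which drives housekeeping and mitochondrial genes, stood at 124, 125 and 132 CPM in the wild-type libraries against 118, 123 and 127 CPM in the mutant ones. The ranges overlapped, and the log2 fold change was -0.049 (SE 0.058). Adjusted p of these 3 genes ran from 0.814 to 0.950 in edgeR.

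Elk3 and Elk4, the partners of serum response factor, also overlapped between genotypes. Elk3 (ENSMUSG00000008398.15, chromosome 10 from 93247414 to 93311135, minus strand) stood at 110, 112 and 92.7 CPM in the wild-type libraries against 101, 93.6 and 103 CPM in the mutant ones. Wild-type replicate 3 was the lowest of the 6 and the other 2 wild-type libraries were the highest. Its log2 fold change was -0.084 (SE 0.079, unadjusted p = 0.315 in edgeR). Without wild-type replicate 3 it was -0.17, with an unadjusted p of 0.0287 and an adjusted p of 0.438 in edgeR. Elk4 (ENSMUSG00000026436.15, chromosome 1 from 132007607 to 132032612, plus strand) stood at 230, 230 and 213 CPM in the wild-type libraries against 223, 223 and 218 CPM in the mutant ones. All 3 mutant values fell inside the wild-type range, and the log2 fold change was -0.019 (SE 0.057).

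Spi1, which encodes PU.1, was the one member of the 10 whose genotypes did not overlap, as was the case for 16.3% of all tested genes. Spi1 (ENSMUSG00000002111.8, chromosome 2 from 91082390 to 91115756, plus strand) stood at 44.3, 41.7 and 46.8 CPM in the wild-type libraries against 40.5, 37.5 and 35.7 CPM in the mutant ones. The gap between the lowest wild-type and the highest mutant library was smaller than the SD within either genotype. The mutant level was 85.6% of wild type (95% interval 77.2% to 95.01%). The log2 fold change of -0.22 (SE 0.077) had an unadjusted p of 0.0143 and an adjusted p of 0.346 in edgeR's quasi-likelihood test, so it did not pass. Over the alternatives that kept all 6 libraries the adjusted p ran from 0.227 to 0.547 in edgeR, DESeq2 and limma-voom. With 1 library left out at a time, the log2 fold change of Spi1 ran from -0.27 to -0.18. The sums of neutrophil and macrophage genes given above overlapped between genotypes. Of the 10 macrophage and dendritic cell genes, 6 were higher and 1 lower in the mutant at an unadjusted p under 0.05 in edgeR. Of the 10 neutrophil genes, 0 were higher and 1 lower at that p. Over all tested genes these shares were 5.83% higher and 4.8% lower. The part of such cells in the Spi1 difference was not tested.

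**Figure D3:**
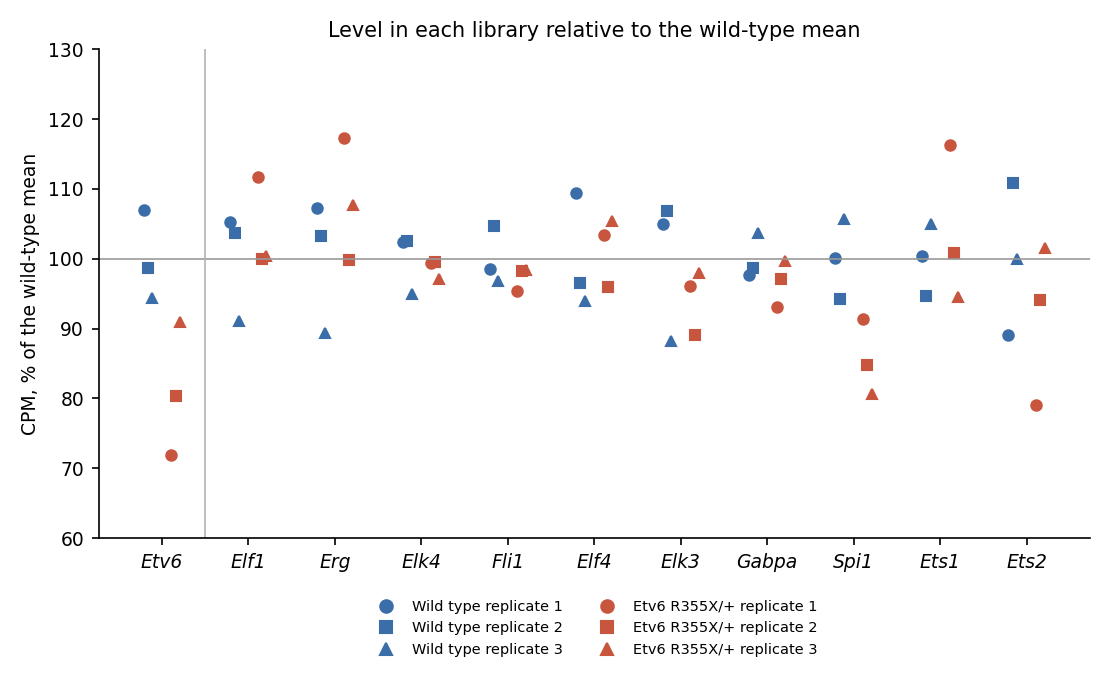
CPM of each gene in each library as a percentage of its wild-type mean, with symbols for replicates and colours for genotypes. Of these 11 genes, Etv6 and Spi1 show separate genotypes, and mutant replicate 1 holds the highest value of Elf1, Erg and Ets1 and the lowest of Etv6, Fli1, Gabpa and Ets2.

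The summed level of the 10 activators per kb was nearly equal between genotypes, at 246, 242 and 225 CPM per kb in wild-type replicates 1, 2 and 3 and 244, 230 and 237 CPM per kb in the mutant replicates. The mean was 238 ± 10.9 in wild type and 237 ± 7.01 CPM per kb in the mutant (SD, n = 3). Etv6 came to 30.9%, 28.9% and 29.7% of that sum in wild type and to 20.9%, 24.8% and 27.3% in the mutant. The mutant percentages lay below all wild-type ones, with mutant replicate 3 the nearest to wild type. These are transcript ratios on the exon scale, given as a description, and they depend on the length used for each gene. Against Fli1 alone, Etv6 was 2.29 ± 0.171 times as high per kb in wild type and 1.90 ± 0.197 times in the mutant, and against Spi1 4.33 ± 0.418 and 4.12 ± 0.738 times, where the genotypes overlapped.

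**Figure D4:**
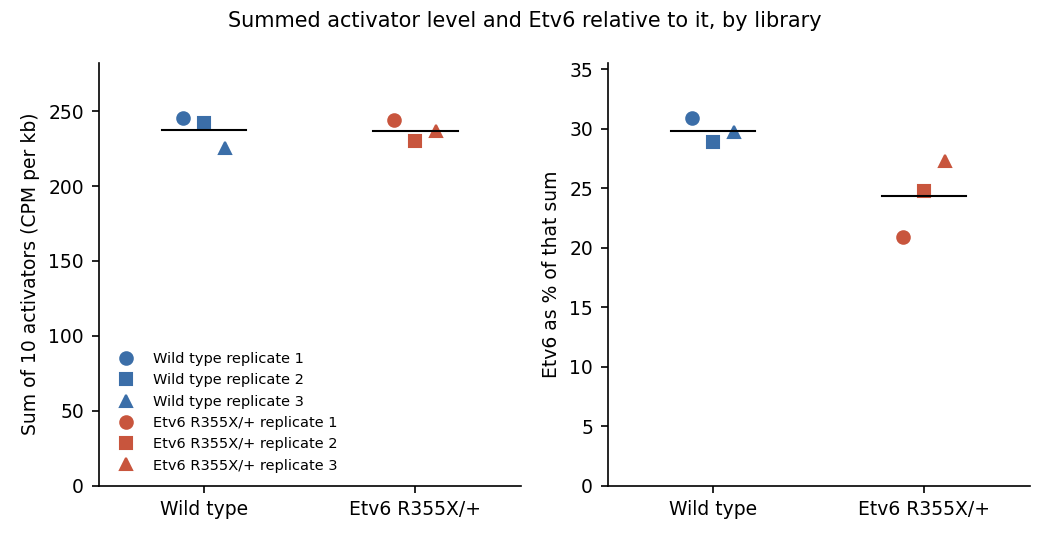
Left, summed CPM per kb of the 10 activator genes in each library. Right, Etv6 per kb as a percentage of that sum, with group means as lines. The sums overlap between genotypes, and the percentages run from 20.9% to 27.3% in the mutant and from 28.9% to 30.9% in wild type.

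Several members share exon sequence with a gene on the other strand, and the deposited counts are unstranded, so reads in the shared part cannot be assigned to one of the genes. Elf1 shares 327 exon bases with Wbp4, Gabpa 397 with Atp5j, Elk3 316 with Cdk17 and Elk4 84 with Mfsd4a. Elk4 shares a further 104 with Gm29103, which lies on its own strand and is listed at 0 in all 6 libraries. The log2 fold changes of these partners were 0.087 for Wbp4, 0.12 for Atp5j, 0.14 for Cdk17 and -0.13 for Mfsd4a, with adjusted p from 0.493 to 0.754 in edgeR. Fli1 contains 6 annotated loci that share no exon base with it, Ets1 contains 1 and Elf1 a further 1. Erg, Ets2, Elf4 and Spi1 overlap no other annotated gene. Etv6 has the same limit, as it shares 135 exon bases with Gm17089 on the other strand. Gm17089 stood at 6.18 to 8.63 CPM over the 6 libraries (log2 fold change 0.30, SE 0.15, adjusted p = 0.512 in edgeR).

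Of the 17 other ETS genes in the table, 10 were tested and none passed in edgeR, DESeq2 or limma-voom. The highest per kb of these, after Etv6, were Elf2, a relative of Elf1, at 14.5 ± 0.623 CPM per kb in wild type and 14.5 ± 2.10 in the mutant, Etv5 at 3.36 ± 0.165 and 4.16 ± 0.949, and the repressor gene Etv3 at 3.30 ± 0.352 and 3.36 ± 0.586. The repressor gene Erf stood at 1.96 ± 0.128 and 2.04 ± 0.195 CPM per kb. Besides Etv6, 2 low genes had an unadjusted p under 0.05 and no overlap. Over all tested genes, 10.6% had such a p and 16.3% did not overlap. Spic, a relative of Spi1 known from red pulp and bone marrow macrophages, stood at 2.51, 2.35 and 2.69 CPM in the wild-type libraries against 5.11, 3.72 and 3.48 CPM in the mutant ones (log2 fold change 0.71, SE 0.20, adjusted p = 0.245 in edgeR). Mutant replicate 1 was the highest library for Spic and for the macrophage sum, whose part in the Spic values was not tested. Etv1, of the PEA3 subfamily, stood at 1.78, 2.05 and 1.29 CPM in the wild-type libraries against 0.755, 1.21 and 1.14 CPM in the mutant ones (log2 fold change -0.74, SE 0.29, adjusted p = 0.417 in edgeR). Etv2 and Fev were at 0 in all 6 libraries, which does not exclude a level too low to be counted.

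Partner factors of the 10 were likewise without a call: 0 of 18 tested passed in edgeR, DESeq2 or limma-voom. Of these 18, 2 had an unadjusted p under 0.05 in edgeR, against 10.6% of all tested genes. The median log2 fold change of the 18 was -0.010. Gabpb1, which encodes a GABP subunit that pairs with Gabpa, stood at 108, 103 and 91.4 CPM in the wild-type libraries against 93.3, 87.0 and 90.5 CPM in the mutant ones (log2 fold change -0.16, SE 0.072, adjusted p = 0.466 in edgeR). Cebpa, a myeloid factor that works beside PU.1, stood at 15.9, 16.1 and 21.3 CPM in the wild-type libraries against 11.5, 16.8 and 11.8 CPM in the mutant ones (log2 fold change -0.41, SE 0.17, adjusted p = 0.438 in edgeR). The genotypes of both genes overlapped. Of 14 genes of ERK signalling, the pathway that activates Elk3, Elk4, Ets1 and Ets2, 0 passed in any of these tools and 0 had an unadjusted p under 0.05 in edgeR. Their log2 fold changes ran from -0.20 for the feedback inhibitor Spry2 to 0.16 for the kinase gene Mapk3. The count at an unadjusted p under 0.05 in edgeR was 2 without wild-type replicate 3 and 1 without mutant replicate 1. The median of the 14 was -0.0155 with all 6 libraries, and 0.0155 and 0.00855 in those fits.

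Known targets of the 10 factors went both ways, and with the count filter, TMM scaling and all 6 libraries none passed over all genes in edgeR. DESeq2 called 4 of those named below. Among 13 megakaryocytic targets of Fli1 and its relatives, 2 had an unadjusted p under 0.05 with a higher and 1 with a lower mutant level, at a median of -0.086. Over all tested genes these shares were 5.83% higher and 4.8% lower. Selp, which encodes P-selectin, stood at 10.9, 15.3 and 11.6 CPM in the wild-type libraries against 23.4, 19.8 and 21.5 CPM in the mutant ones (log2 fold change 0.78, SE 0.14, adjusted p = 0.0562 in edgeR). The genotypes did not overlap, as was the case for 16.3% of all tested genes. DESeq2 called Selp (adjusted p = 1.07e-05), limma-voom called it (0.0483), and so did edgeR without wild-type replicate 2 (0.044) and without a count filter (3.82e-05). The median of this list was 0.15 without wild-type replicate 3.

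Of 12 endothelial-type targets, 1 had an unadjusted p under 0.05 with a higher and 2 with a lower mutant level (median 0.050). The shares over all tested genes were 5.83% higher and 4.8% lower. Tek, the angiopoietin receptor gene, stood at 8.58, 8.38 and 8.09 CPM in the wild-type libraries against 12.1, 11.5 and 10.3 CPM in the mutant ones. Emcn, which encodes endomucin, stood at 13.9, 13.4 and 10.06 CPM in the wild-type libraries against 8.14, 9.21 and 10.05 CPM in the mutant ones. The log2 fold changes were 0.44 (SE 0.12) and -0.45 (SE 0.15), with adjusted p of 0.242 and 0.335 in edgeR, and DESeq2 called Tek (adjusted p = 0.047). Emcn is also a gene of the endothelial list above. The sign of this list's median changed without wild-type replicate 2 (-0.0985), wild-type replicate 3 (-0.0445) or mutant replicate 1 (-0.0595).

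The 16 tested PU.1 targets were split, with 8 above and 8 below 0 and a median of 0.00092. An unadjusted p under 0.05 was found for 4 genes higher in the mutant and 2 lower. Over all tested genes 5.83% were higher at that p and 4.8% lower. Fcer1g, the shared signalling chain of Fc receptors, stood at 34.9, 32.2 and 35.5 CPM in the wild-type libraries against 54.1, 43.3 and 47.4 CPM in the mutant ones (log2 fold change 0.50, SE 0.090, adjusted p = 0.0591 in edgeR). Cd68, a macrophage lysosomal gene, stood at 13.7, 12.1 and 15.1 CPM in the wild-type libraries against 21.7, 17.3 and 19.1 CPM in the mutant ones (log2 fold change 0.51, SE 0.12, adjusted p = 0.174 in edgeR). Both were higher in every mutant library than in any wild-type one. Of all tested genes, 16.3% likewise did not overlap between genotypes, in one direction or the other. DESeq2 called both Fcer1g (adjusted p = 0.000215) and Cd68 (0.00841). In edgeR both passed without a count filter (adjusted p = 0.000201 and 0.016), as did the integrin gene Itgam (0.00803, higher in the mutant) and Mpo (0.00292, lower in the mutant). Fcer1g also passed with scaling by library size alone (0.0495). Cells that carry Fcer1g include mast cells and macrophages, and the sum over 9 mast cell, basophil and eosinophil genes was 66.1 to 88.9 CPM in wild type and 87.6 to 104 CPM in the mutant, with 8 of 9 above 0. Its part in the Fcer1g values was not tested. Leaving out mutant replicate 1 gave a median of -0.0897 for the list and leaving out mutant replicate 3 gave 0.115. It was 0.144 with a filter of at least 1 CPM in 3 libraries, and 0.17 without wild-type replicate 3, the library with the highest level of the granulocyte peroxidase gene Mpo (4688 CPM against 2015 to 2673 in the other 5).

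Among 12 immediate early targets of ELK factors and serum response factor, 1 had an unadjusted p under 0.05, against 10.6% of all tested genes. The median of the 12 was -0.10. With 1 library left out the median ran from -0.175 without wild-type replicate 3 to 0.0235 without wild-type replicate 1, and the count was 0 without wild-type replicate 2 or mutant replicate 1. The gene, the growth inhibitor Btg2, stood at 21.2, 19.3 and 16.2 CPM in the wild-type libraries against 22.5, 23.5 and 21.7 CPM in the mutant ones (log2 fold change 0.25, SE 0.11, adjusted p = 0.457 in edgeR). Ier2, another immediate early gene, had a log2 fold change of -0.22 (SE 0.11). Of 11 mitochondrial targets of GABP, 1 had an unadjusted p under 0.05, again against 10.6% of all tested genes, and the median was -0.0053. The cytochrome oxidase gene Cox7c stood at 89.7, 84.7 and 90.0 CPM in the wild-type libraries against 114, 95.3 and 97.3 CPM in the mutant ones (log2 fold change 0.21, SE 0.075, adjusted p = 0.364 in edgeR), and the ATP synthase gene Atp5b had a log2 fold change of -0.15 (SE 0.079).

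**Figure D5:**
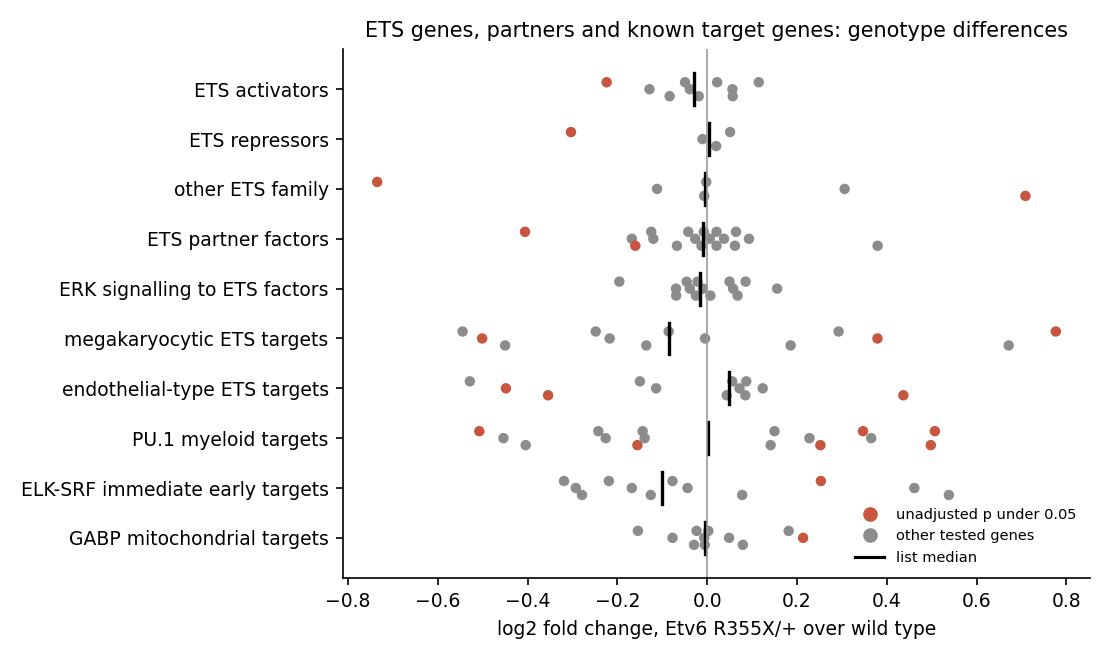
Log2 fold change of each tested gene (dots) in 10 lists of ETS genes, partners, upstream kinases and known targets, with list medians as black lines and genes with an unadjusted p under 0.05 in red. The activator genes lie between -0.22 and 0.11 and the ERK genes between -0.20 and 0.16, and the target lists spread to both sides of 0.

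The genes nearest to Spi1 in their pattern over the 6 libraries were Scrib, Ppp2cb and Ptger1, with root mean square differences of 0.034, 0.036 and 0.040 on the centred log2 CPM scale. Those nearest to Erg were Tmem243, Irf5 and Il16, at 0.024 each. None of these 6 genes passed between genotypes, with adjusted p from 0.396 to 0.791 in edgeR.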

How the data were processed

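Total RNA of sorted LSK cells was amplified by single-primer isothermal amplification, per the labels' protocols. The authors deposited expected counts per gene and library, not scaled for depth. Trim Galore 0.60, STAR 2.7, RSEM 1.31 and build mm10 are named in the submitters' processing notes, and the annotation release is not given in the sources used here. A further 92 rows that name no mouse gene were at 0 and left out.

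Expected counts were rounded, filtered with filterByExpr (20646 genes kept) and scaled by TMM. The two-sided comparison of genotypes used glmQLFit and glmQLFTest of edgeR (4.0.16, under R 4.3.3), with Benjamini-Hochberg adjustment over all tested genes and a threshold of 0.05. Each standard error is the size of the fold change divided by the root of F. DESeq2 1.42.0, limma-voom (limma 3.58.1), other scalings and filters, a replicate block and leaving out libraries were alternatives. The fit was tested on simulated data. Positions and lengths (union of exons) came from GENCODE M21, of the same build.

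The members and lists were chosen with earlier results of these data known. Named genes are the members, Etv6, the 3 highest other ETS genes and any with an unadjusted p under 0.05, the 2 genes of each list with the smallest p, the 3 protein-coding genes nearest to each of the 2 members with the smallest p, and genes that overlap a member. One gene that this rule names is not reported here. Erf, Etv2, Fev, Itgam, Mpo, Gm17089 and the markers Kit, Ly6a, Igkc, Cdh5, Hbb-bt, Hbb-bs, Klrb1c and Fcer1a lie outside this rule. They were named after their values were seen. Replicate pairs of a genotype differed beyond sampling noise (chi-square per gene 11.2 to 46.5). The labels do not say that replicates are separate animals, so the p-values cover only library-to-library spread, possibly technical.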

Additional observations from a re-analysis of the deposited data

How the results depend on the processing

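None of the 10 activator genes passed the adjusted threshold in any of the 16 alternative fits, where their lowest adjusted p was 0.227 (DESeq2, Spi1) and their log2 fold changes ran from -0.27 to 0.17. The sign held in all of these fits for 5 of the 10. The number of the 10 with an unadjusted p under 0.05 ran from 0 to 1 with 1 library left out. It was 0 without mutant replicate 3, where Spi1 had an unadjusted p of 0.0610 in edgeR, and without wild-type replicate 3 it was Elk3 and not Spi1 (unadjusted p = 0.0507 in edgeR). Leaving out both mutant replicate 1 and wild-type replicate 3, an alternative added once the data had been seen, gave 2, Spi1 and Elk3. Over all genes, 55 were called, against 329 with DESeq2, 527 without a count filter and 32 with the replicate block, and 16 to 67 with 1 library left out. Over the fits that left out 1 library, the Etv6 log2 fold change ran from -0.39 to -0.22. Etv6 passed without a count filter (log2 fold change -0.30, adjusted p = 0.0111 in edgeR) and in no other fit. The causes were not tested. Same-numbered libraries did not deviate together (correlations of deviations from -0.15 to -0.035), so the replicate numbers were not taken to pair them.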

Other observations

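Loci annotated inside the introns of Etv6, on its strand, did not share its lower mutant values. Gm43982 stood at 52.5, 55.9 and 46.8 CPM in the wild-type libraries against 61.4, 61.1 and 72.0 CPM in the mutant ones (log2 fold change 0.33, SE 0.088, adjusted p = 0.218 in edgeR's quasi-likelihood test). Gm43984 stood at 105, 111 and 91.1 CPM in the wild-type libraries against 109, 115 and 124 CPM in the mutant ones (log2 fold change 0.18, SE 0.082, adjusted p = 0.483 in edgeR). Neither passed, and both were named after their values were seen. The like loci inside Fli1, which are Gm37474, Gm38346, Gm37082 and Gm38292, had log2 fold changes of -0.11, -0.11, 0.064 and -0.15, against -0.039 for Fli1 itself.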
